A study of Mus musculus with 24 samples.

Results

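The 10 genes described here encode proteins of epithelial cell junctions and simple epithelial intermediate filaments. They are the cadherins Cdh1 and Cdh3, the adhesion molecule Epcam, the keratins Krt8, Krt18 and Krt19, and the claudins Cldn3, Cldn4, Cldn6 and Cldn7. Every probe set, a group of short probes for 1 transcript on the array, that the platform's annotation gives to 1 of these symbols was taken, which gave 17 of the 34945 probe sets with a single gene symbol and 10 of 18193 genes. The rule uses gene symbols alone. Cdh3 had 2 probe sets, Epcam 2, Krt8 3 and Cldn3 4, and each of the other genes had 1. For a gene with several, the lead probe set is the one whose mean signal across the arrays is highest.

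RNA of 24 samples was measured on Affymetrix mouse arrays in 8 groups of 3. P19 is a mouse embryonal carcinoma line with properties of early embryonic cells, and the MEFs are fibroblasts from Myod-/-/Myf5-/- embryos, so that all MEF groups, controls included, are labelled as lacking both myogenic genes. Cells received lentivirus carrying MyoD, the factor that starts the skeletal muscle programme, or NeuroD2, a related neuronal factor, in medium with 8 µg/ml polybrene that was replaced after 24 hours. Controls were untransduced, so infection itself is not controlled for. Batch 1 held P19 and MEF controls and both cells with MyoD, batch 2 held MEF controls and MEFs labelled NeuroD2, and batch 3 held P19 controls and P19 cells with NeuroD2. For P19 cells given either factor, the recorded time of harvest was 72 hours. MEFs with MyoD were moved at 48 hours to low-serum differentiation medium and collected 36 to 40 hours later. No harvest time or change to that medium is recorded for the controls, so whether they were matched in time and medium is not known. A harvest time for MEFs labelled NeuroD2 and the promoter of each virus are not given in the sources used. Groups were read from titles and source names, because another label field of the samples with MyoD describes neuronal cells.

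Cadherins are calcium-dependent adhesion proteins that join neighbouring cells at adherens junctions, and claudins form the seal of tight junctions. Keratin 8 pairs with keratin 18 or keratin 19 in the filaments of simple epithelia. Pluripotent cells grow as compact epithelial colonies that carry E-cadherin and EpCAM, whereas fibroblasts are mesenchymal, and repressors of the Snail, Zeb and Twist families silence many epithelial genes in such cells. Snail and Zeb proteins bind the E-box CACCTG, which reads CAGGTG on the opposite strand, and MyoD and NeuroD2 also bind E-boxes, the 6-base motifs of the form CANNTG.

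Some members lie side by side in the genome. In the RefSeq annotation no other protein-coding gene lies between Cdh3 and Cdh1, between Krt8 and Krt18, or between Cldn4 and Cldn3 (0 genes in each case). RefSeq promoter windows of 300 bases, 250 before and 50 after the start of transcription, were matched by symbol for 7 of the 10 genes, in 8 windows because Cldn7 had 2. The 250 bases upstream are printed 5′ to 3′ on the gene's strand for the 6 genes with a window that were lower in MEF than in P19 controls, because the members' largest differences lay between these cells. Capitals mark CAGGTG or CACCTG.
Epcam, GRCm38.p6 chr17:87635729-87635978, plus strand: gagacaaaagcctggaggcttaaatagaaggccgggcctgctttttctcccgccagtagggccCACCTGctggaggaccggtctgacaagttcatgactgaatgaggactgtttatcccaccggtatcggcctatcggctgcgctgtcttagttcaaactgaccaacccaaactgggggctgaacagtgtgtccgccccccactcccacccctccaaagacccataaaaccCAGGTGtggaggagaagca
Krt8, GRCm38.p6 chr15:102004343-102004592, minus strand: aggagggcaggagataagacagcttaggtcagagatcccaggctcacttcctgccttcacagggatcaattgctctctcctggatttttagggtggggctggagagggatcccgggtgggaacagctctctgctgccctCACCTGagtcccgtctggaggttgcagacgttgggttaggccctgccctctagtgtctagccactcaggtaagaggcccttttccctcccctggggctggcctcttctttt
Krt18, GRCm38.p6 chr15:102027966-102028215, plus strand: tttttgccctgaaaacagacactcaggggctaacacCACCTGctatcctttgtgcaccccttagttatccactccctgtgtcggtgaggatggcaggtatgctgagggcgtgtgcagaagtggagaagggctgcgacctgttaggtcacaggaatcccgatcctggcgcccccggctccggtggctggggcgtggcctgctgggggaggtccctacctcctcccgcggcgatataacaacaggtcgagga
Cldn3, GRCm38.p6 chr5:134985964-134986213, plus strand: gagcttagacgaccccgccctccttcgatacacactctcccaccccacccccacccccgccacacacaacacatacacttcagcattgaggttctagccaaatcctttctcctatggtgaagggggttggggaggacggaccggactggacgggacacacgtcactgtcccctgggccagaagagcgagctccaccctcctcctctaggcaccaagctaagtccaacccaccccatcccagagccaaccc
Cldn6, GRCm38.p6 chr17:23679115-23679364, plus strand: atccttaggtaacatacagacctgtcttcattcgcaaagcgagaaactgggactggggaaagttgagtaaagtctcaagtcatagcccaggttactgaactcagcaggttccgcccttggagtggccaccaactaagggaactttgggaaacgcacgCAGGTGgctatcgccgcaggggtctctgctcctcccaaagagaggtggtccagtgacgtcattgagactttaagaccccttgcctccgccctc
Cldn7, first window, GRCm38.p6 chr11:69964529-69964778, plus strand: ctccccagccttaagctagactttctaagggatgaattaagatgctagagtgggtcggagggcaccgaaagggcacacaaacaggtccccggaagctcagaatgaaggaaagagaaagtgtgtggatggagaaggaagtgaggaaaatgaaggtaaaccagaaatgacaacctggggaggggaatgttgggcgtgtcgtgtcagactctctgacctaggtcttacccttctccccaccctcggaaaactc
Cldn7, second window, GRCm38.p6 chr11:69965171-69965420, plus strand: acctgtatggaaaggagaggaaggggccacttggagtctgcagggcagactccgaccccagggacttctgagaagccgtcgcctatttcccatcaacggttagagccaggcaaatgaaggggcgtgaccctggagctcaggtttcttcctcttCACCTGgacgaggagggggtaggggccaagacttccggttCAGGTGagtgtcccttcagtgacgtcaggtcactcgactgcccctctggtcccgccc
CAGGTG, searched on both strands, occurred in at least 1 window of 7 of the 7 genes and in 7 of the 8 windows. It occurred in 20.2% of all 32851 windows of the same length, or for 22.6% of 27025 genes. Upstream of Epcam it stood at positions -187 and -19 from the start, upstream of Krt8 at -111, of Krt18 at -214, of Cldn6 at -93 and in the second Cldn7 window at -97 and -57. Cldn4, which was not called between the MEF and P19 controls, also held CAGGTG, at -14 and, past the start, at 12. The 250 bases upstream of Cldn3 and of the first Cldn7 start did not hold CAGGTG, and the Cldn3 match lay past the start, at 32. CAGCTG occurred for 2 of the 7 genes, Krt8 and Cldn4, and in 16.3% of all windows. CAGATG or its reverse complement CATCTG occurred for 0 of the 7 and in 17.2% of all windows. All 3 motifs are forms of CANNTG, which 72.3% of windows held. A match describes the letters only, and binding was not measured here.

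The values are log2 signals as deposited. Quartiles on 23 arrays were 4.47 to 4.58 (lower) and 8.23 to 8.39 (upper). The exception was replicate 2 of the P19 controls of batch 1, with 4.79 and 7.63 and a mean correlation across probe sets of 0.919 with the other arrays of its group, against 0.984 to 0.998 within the other 7 groups. It is called the array that stood apart, and results that rest on it are given with and without it. Pou5f1 and Sox2, genes of pluripotent cells, and the collagens Col1a1 and Col1a2 separated the P19 from the MEF arrays. Myod1 rose by 3.94 in P19 cells and 5.55 in MEFs with MyoD at 1 of its 2 probe sets. That probe set read 7.18 in the MEF controls, which are labelled as lacking the gene, against 5.72 in the P19 controls of batch 1 (1.46 higher, limma adjusted p = 4.1e-09). In P19 cells with NeuroD2, 1 of the 3 Neurod2 probe sets rose, by 1.70 (limma adjusted p = 1.85e-06). In the MEFs labelled NeuroD2 that probe set differed from control by -0.06 (adjusted p = 0.943), so the label of those arrays was not borne out by its RNA. The labels do not say whether replicates came from separate cultures, and p-values here cover only the spread among these samples, which may be technical. In bulk RNA, fewer cells with a transcript and less of it per cell cannot be told apart.

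The starting cells differed most. Compared within batch 1, 14 of the 17 member probe sets, of 9 genes, were lower in MEF than in P19 controls and 0 were higher, at a limma adjusted p under 0.05. Over all probe sets 23.4% passed as lower and 25.3% as higher. The median difference was -1.74 on the log2 scale over the members and -0.07 over all probe sets. Without P19 control replicate 2 these medians were -1.40 and -0.03. Cldn4 was the gene without a call. An unadjusted p under 0.05 was reached by 15 as lower and 0 as higher. The share of all probe sets at an unadjusted p was not computed, so such counts have no background beside them. The counts of 14 and 0 were the same without P19 control replicate 2, where 27.7% of all probe sets were lower.

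Epcam, a homophilic adhesion molecule of epithelia and pluripotent cells, had log2 signals of 10.90, 10.01 and 10.86 in the P19 controls of batch 1 and 4.75, 4.91 and 4.94 in the MEF controls. Its lead probe set was 52.8-fold lower in MEFs (log2 difference -5.72, SE 0.24, limma adjusted p = 4.35e-14). Over all groups it lay between 9.82 and 11.35 on the 12 P19 arrays and between 4.62 and 5.50 on the 12 MEF arrays. The other Epcam probe set did not follow it, with 5.95 to 7.85 on the P19 arrays and 6.54 to 7.11 on the MEF arrays.

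Cdh1, which encodes E-cadherin, read 9.06, 6.29 and 9.18 in the P19 controls of batch 1 and 3.82, 4.09 and 3.85 in the MEF controls. The low P19 value was that of the array that stood apart. The difference was -4.26 (SE 0.49, limma adjusted p = 3.18e-07) and -5.20 without that array. On all 12 MEF arrays Cdh1 lay between 3.58 and 4.11, below the lower quartile of every array. Cdh3, which encodes P-cadherin, differed less: its lead probe set read 7.13, 7.04 and 6.98 in P19 controls and 6.59, 6.49 and 6.36 in MEF controls, a difference of -0.57 (SE 0.13, limma adjusted p = 0.000853). The other Cdh3 probe set overlapped between the cells and was not called (-0.35, adjusted p = 0.0628).

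The keratin pair of simple epithelia was present in P19 cells. Krt8 read 9.24, 8.26 and 9.37 at its lead probe set in P19 controls of batch 1 and 5.41, 4.79 and 5.03 in MEF controls. Its 3 probe sets were lower in MEFs by -3.88, -3.40 and -3.44. Krt18 read 8.97, 8.56 and 9.32 in the P19 controls and 4.61, 4.69 and 4.49 in the MEF controls, a difference of -4.35 (SE 0.33, limma adjusted p = 5.65e-10). Krt19 read 7.20, 7.44 and 7.48 against 5.19, 5.30 and 5.26, a difference of -2.12 (SE 0.29, limma adjusted p = 2.9e-06). In each of these genes the controls of the 2 cell types did not overlap. Among MEF arrays, replicate 3 of the batch 2 controls had the highest Krt8 and Krt18 signals, 6.18 and 5.47, still below every P19 array.

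Of the claudins, Cldn3, Cldn6 and Cldn7 were lower in MEFs. Cldn3 was lower at all 4 probe sets, by -0.93 to -1.79. Cldn6, a claudin of embryonic epithelia, read 7.12, 6.65 and 7.18 in the P19 controls of batch 1 and 5.82, 5.75 and 5.83 in the MEF controls (log2 difference -1.19, SE 0.17, limma adjusted p = 6.79e-06). Cldn7 read 5.69, 6.72 and 5.56 against 4.69, 4.42 and 4.59 (-1.42, SE 0.20, limma adjusted p = 6.83e-06), and the difference was -1.06 when the array that stood apart was left out. Cldn4 lay between 5.05 and 6.33 on all 24 arrays and its groups overlapped. It differed by -0.35, with a 95% interval from -0.73 to 0.02 (limma adjusted p = 0.11).

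**Figure D1:**
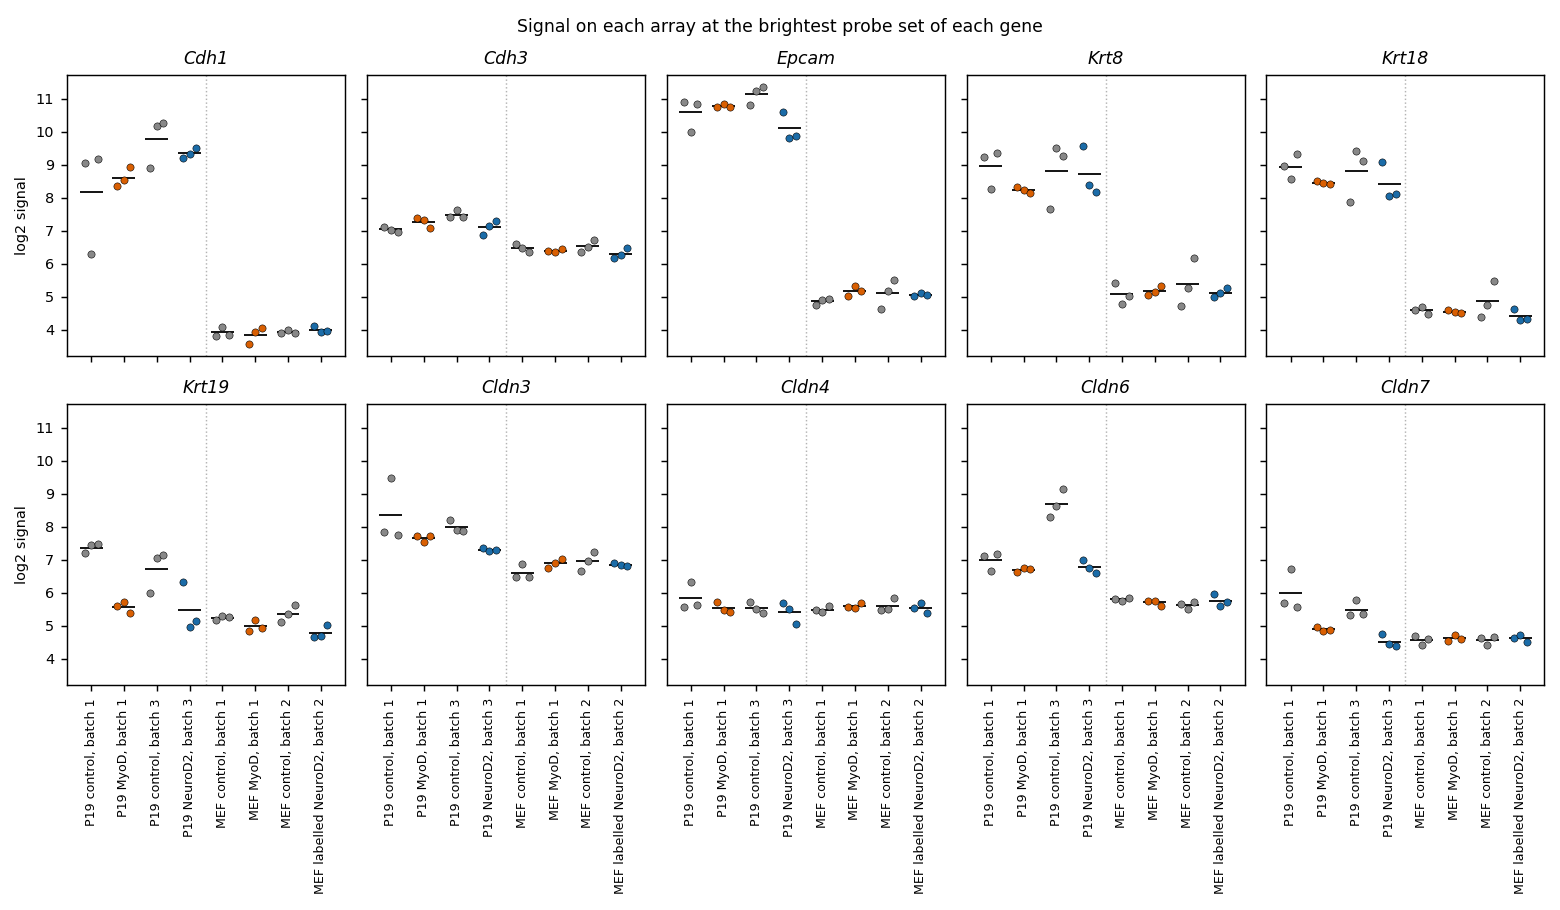
Log2 signal of the lead probe set of each of the 10 genes on all 24 arrays, in 8 groups of 3; points are arrays (grey controls, orange MyoD, blue NeuroD2), lines are group means and the dotted line separates P19 cells from MEFs. Epcam, Cdh1, Krt8 and Krt18 lay higher on every P19 array than on any MEF array, whereas Cldn4 did not separate the cells.

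Over all groups, transduced ones included, 11 of the 17 member probe sets had every P19 array above every MEF array. The same count was not made over all probe sets, so how usual such separation was cannot be said. The other 6 member probe sets, which include the only ones of Krt19, Cldn4 and Cldn7, overlapped. For Krt19 and Cldn7 the overlap came from P19 cells with a factor: the lowest P19 values, 4.97 and 4.39, were on arrays of P19 cells with NeuroD2. The order of the Krt19 group means ran from P19 controls of batch 1 (7.37) and batch 3 (6.73) to P19 cells with MyoD (5.57) and with NeuroD2 (5.49), with the MEF groups at 5.36 to 4.79. Arrays of neighbours in that order overlapped, except between the P19 control groups, between the batch 3 controls and P19 cells with MyoD, and between the batch 1 MEF controls and MEFs with MyoD.

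The genes whose profiles over the 8 group means lay nearest to the members were taken by the smallest mean absolute difference after centring. Nearest to Epcam were Gdf3, Fndc3c1, Apela, Plce1 and Podxl, which differed from it by 0.123 to 0.207 log2 units. Nearest to Cdh1 were Epop, Nanog, Mageh1, Sox3 and Fam169a (0.203 to 0.252). The Cdh1 mean of the batch 1 P19 controls, 8.18, included 6.29 from the array that stood apart, beside 9.06 and 9.18. Nearest profiles were not taken without that array, so how far they rest on it is not known. Nearest to Krt8 were Gstk1, 2900026A02Rik, 1700019D03Rik, Rims2 and Alpl (0.148 to 0.195). Nanog and Sox3 are transcription factors of early embryonic cells, and Gdf3 is a secreted factor of the same cells.

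With MyoD, P19 cells had less Krt19 and Cldn7 transcript than their controls, and no call was made for Cdh1 or Epcam. Of the 17 member probe sets 2 were lower and 0 higher (limma adjusted p under 0.05), while 0.478% of all probe sets were lower and 1.99% higher. The median difference was -0.32 over the members and 0.04 over all probe sets, and -0.26 and -0.01 without P19 control replicate 2. An unadjusted p under 0.05, for which no share of all probe sets was computed, was reached by 4 as lower and 0 as higher. The same 2 genes were called without P19 control replicate 2, beside 1.29% of all probe sets lower, and 6 probe sets were lower without control replicate 3, beside 14.7% of all.

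Krt19 read 7.20, 7.44 and 7.48 in the controls and 5.60, 5.72 and 5.39 with MyoD. All 3 transduced arrays lay below all 3 controls, and the fall was 3.49-fold (log2 -1.80, SE 0.29, limma adjusted p = 0.000905). Cldn7 read 5.69, 6.72 and 5.56 in the controls and 4.95, 4.85 and 4.87 with MyoD, again without overlap (-1.10, SE 0.20, limma adjusted p = 0.0046). The Cldn7 control with the highest value was the array that stood apart, and without it the difference was -0.73 (adjusted p = 0.00163). When only the 6 arrays compared were fitted the Cldn7 call ended (adjusted p = 0.644), and against the P19 controls of batch 3 it was -0.59 (adjusted p = 0.0772).

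Krt8 and Krt18 were not called with MyoD, although the Krt18 groups and those of 1 Krt8 probe set did not overlap. At the other Krt8 probe sets only control replicate 2 lay as low as the MyoD arrays. The lead Krt8 probe set read 8.34, 8.24 and 8.15 with MyoD and differed by -0.71 (95% interval -1.60 to 0.17). Krt18 read 8.50, 8.45 and 8.42 and differed by -0.50 (-1.18 to 0.19). Epcam differed by 0.20 and Cdh3 by 0.22, and their arrays overlapped with the controls. Cdh1 read 8.36, 8.54 and 8.94 with MyoD; its difference was 0.44 with all arrays and -0.51 without control replicate 2, and was not called either way. Cldn6 differed by -0.28 and Cldn4 by -0.31, and the 4 Cldn3 probe sets by -0.68 to -0.17, none of them called. The array that stood apart held the highest control value of Cldn4 and of the lead Cldn3 probe set. That Cldn3 probe set read 7.83, 9.48 and 7.74 in controls and 7.73, 7.54 and 7.73 with MyoD. Cldn4 read 5.57, 6.33 and 5.64 against 5.71, 5.48 and 5.41. For Cldn6 the same array held the lowest control value, 6.65, beside 7.12 and 7.18.

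With NeuroD2, P19 cells had less Cldn3, Cldn6, Cldn7, Epcam and Krt19 transcript than the controls of the same batch, and no call was made for Cdh1. Of the 17 member probe sets 7, of the 5 genes Epcam, Krt19, Cldn3, Cldn6 and Cldn7, were lower and 0 higher (limma adjusted p under 0.05), against 2.59% of all probe sets lower and 4.75% higher. The median difference was -0.43 over the members and -0.04 over all probe sets. An unadjusted p under 0.05, for which no share of all probe sets was computed, was reached by 9 as lower and 0 as higher. Without the P19 control of batch 1 that stood apart, which enters only through the shared spread, 9 were lower (9.5% of all probe sets), with the lead probe sets of Cdh3 and Cldn3 added.

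Cldn6 read 8.29, 8.64 and 9.14 in the controls of batch 3 and 6.99, 6.76 and 6.60 with NeuroD2. The groups were far apart, and the fall was 3.75-fold (log2 -1.91, SE 0.17, limma adjusted p = 1.04e-07). These controls were themselves higher than the P19 controls of batch 1, which read 7.12, 6.65 and 7.18, by 1.71 (SE 0.17, limma adjusted p = 2.01e-06). Set against the batch 1 controls the NeuroD2 arrays differed by -0.20 (adjusted p = 0.374). Cldn6 was thus called against the controls of its own batch and not against those of batch 1.

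Cldn3 fell at 3 of its 4 probe sets, by -0.78, -0.70 and -0.81 (limma adjusted p = 3.14e-05, 0.0077 and 4.07e-05). The lead probe set read 8.21, 7.89 and 7.88 in controls and 7.36, 7.27 and 7.29 with NeuroD2, a difference of -0.69 that was not called (adjusted p = 0.206), though it was when the array that stood apart was left out (0.00051). At all 4 probe sets the groups did not overlap. Cldn7 read 5.32, 5.77 and 5.36 in controls and 4.74, 4.44 and 4.39 with NeuroD2 (-0.96, SE 0.20, limma adjusted p = 0.00423), and these values also did not overlap. Cldn4 differed by -0.13 (95% interval -0.50 to 0.25).

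Epcam read 10.82, 11.25 and 11.35 in controls and 10.61, 9.82 and 9.88 with NeuroD2. Every NeuroD2 array lay below every control, and the fall was 2.05-fold (log2 -1.04, SE 0.24, limma adjusted p = 0.00747). The call ended without NeuroD2 replicate 2 (-0.90, adjusted p = 0.0589) and against the controls of batch 1 (-0.48, adjusted p = 0.126). Cdh1 read 8.89, 10.18 and 10.26 in controls and 9.21, 9.32 and 9.52 with NeuroD2. Its groups overlapped because control replicate 1 was low, and the difference of -0.43 had a 95% interval from -1.45 to 0.59. Cdh3 differed by -0.38 at its lead probe set without overlap (limma adjusted p = 0.086).

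The keratins did not follow the same order on every array of batch 3. Krt8 read 7.67, 9.51 and 9.26 in the controls of batch 3 and 9.57, 8.38 and 8.19 with NeuroD2 at its lead probe set. Replicate 1 was the lowest control and the highest NeuroD2 array, the reverse of the other replicates. Krt18 showed the same order, with 7.88, 9.43 and 9.12 in controls and 9.09, 8.05 and 8.12 with NeuroD2. The differences over all arrays were -0.10 for Krt8 and -0.39 for Krt18 and were not called (limma adjusted p = 0.975 and 0.694). Krt19 read 5.99, 7.05 and 7.14 in controls and 6.34, 4.97 and 5.16 with NeuroD2, so that replicate 1 overlapped. Its difference of -1.24 passed the test (SE 0.29, limma adjusted p = 0.00813), but ended without control replicate 2, control replicate 3, NeuroD2 replicate 2 or NeuroD2 replicate 3 (adjusted p = 0.0531 to 0.0753) and with the 6 arrays alone (adjusted p = 0.16).

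Leaving out replicate 1 of both groups together was tried after these values were seen, so it gives no independent support. Krt18 then differed by -1.19 (limma adjusted p = 0.0058), Krt19 by -2.03, and the Krt8 probe sets by -1.10, -1.10 and -1.07, of which the lead was not called (adjusted p = 0.0813). In that fit 9 member probe sets were lower, beside 2.81% of all probe sets. One Cldn3 probe set lost its call (-0.56, adjusted p = 0.11). On those 2 arrays Cdh1 also stood in reverse, with 8.89 in the control and 9.21 with NeuroD2, as did the other Epcam probe set (6.21 and 6.42). The control stayed above the NeuroD2 array for Cldn6 (8.29 and 6.99), Cldn7 (5.32 and 4.74) and the lead Epcam probe set (10.82 and 10.61). What set these arrays apart was not tested.

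**Figure D2:**
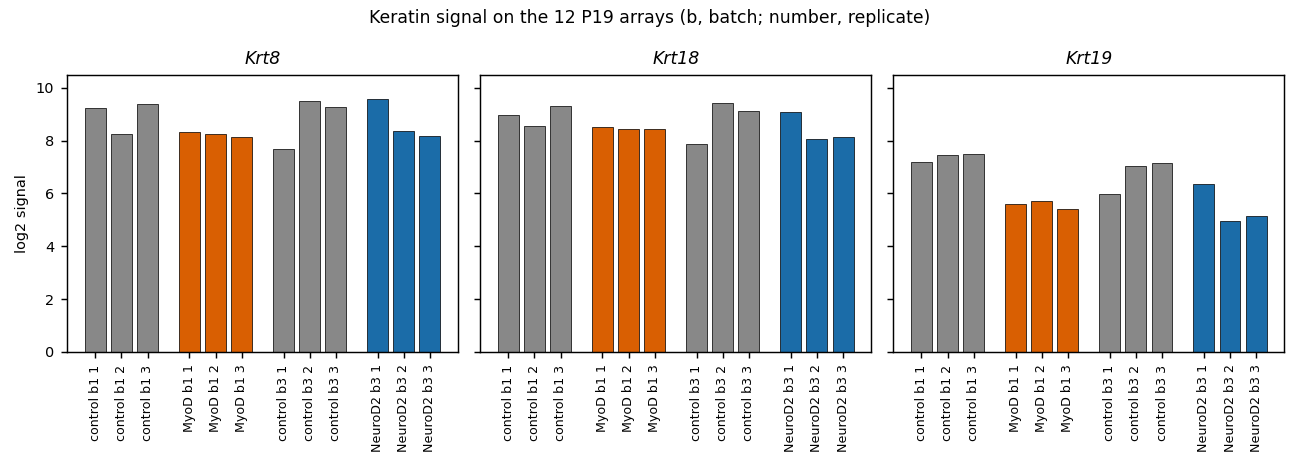
Log2 signal of the lead probe sets of Krt8, Krt18 and Krt19 on the 12 P19 arrays; each bar is 1 array (grey controls, orange MyoD, blue NeuroD2; b gives the batch, the last digit the replicate) and the axis starts at 0. In batch 3 the control of replicate 1 was the lowest of its group and the NeuroD2 array of replicate 1 the highest for all 3 genes.

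In MEFs no member was called, either with MyoD or on the arrays labelled NeuroD2. With MyoD 0 of 17 were higher and 0 lower, beside 10.3% and 12.9% of all probe sets. In MEFs labelled NeuroD2 0 of 17 were higher and 0 lower, beside 6.13% and 5.25% of all probe sets. An unadjusted p under 0.05, for which no share of all probe sets was computed, was reached by 0 of the 17 in either comparison. Epcam read 5.01, 5.33 and 5.17 with MyoD against 4.75, 4.91 and 4.94 in its controls, a difference of 0.31 (95% interval -0.19 to 0.80). Krt19 read 4.66, 4.70 and 5.03 in MEFs labelled NeuroD2 against 5.12, 5.35 and 5.62, without overlap, and differed by -0.57 (95% interval -1.17 to 0.03). With only the 6 arrays compared, limma called the lead Epcam probe set higher and the other Epcam probe set and Krt19 lower with MyoD (0.31, -0.22 and -0.27, adjusted p = 0.0196, 0.0411 and 0.0296) and Krt19 lower in MEFs labelled NeuroD2 (adjusted p = 0.0336). In those fits 22.1% of all probe sets were higher and 24.7% lower with MyoD. In MEFs labelled NeuroD2 13.2% were higher and 11.9% lower. Cdh1 differed by -0.07 with MyoD and by 0.06 in the arrays labelled NeuroD2. Cdh1 lay below the lower quartile on these arrays, where little room is left for a fall to be seen.

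**Figure D3:**
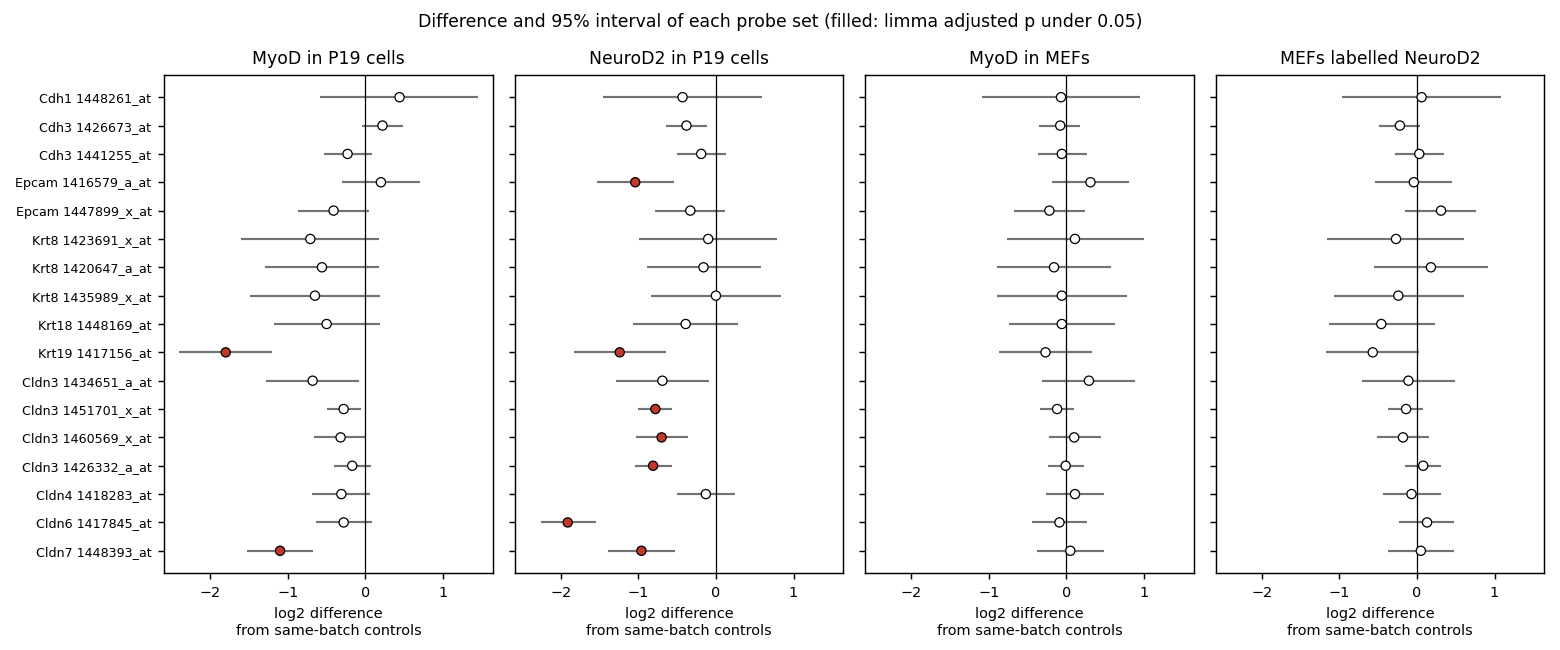
Log2 difference of each of the 17 member probe sets from the untransduced controls of the same batch, with its 95% interval from the limma fit, for the 4 transduced groups; filled points passed an adjusted p of 0.05. In P19 cells 2 probe sets passed with MyoD and 7 with NeuroD2, all lower, and 0 passed in MEFs.

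Whether an effect differed between cells or factors was tested directly, as 1 difference minus another. The MyoD effect was higher in MEFs than in P19 cells for Krt19 (by 1.54) and Cldn7 (by 1.15). In the MEF controls of batch 1 their means were 5.25 and 4.57, above 34.4% and 20.9% of all probe sets. A fall there had less room to be seen than in P19 cells. The MyoD comparison thus had 2 of 17 probe sets higher and 0 lower, beside 5.86% of all higher and 13.3% lower. The difference from control was higher in MEFs labelled NeuroD2 than in P19 cells with NeuroD2 for Cldn6 (2.04), Cldn7 (1.01) and 2 Cldn3 probe sets (0.64 and 0.89). That was 4 of 17 higher and 0 lower, beside 4.31% of all higher and 5.22% lower. Within P19 cells the NeuroD2 effect was lower than the MyoD effect for Cldn6 (-1.63, limma adjusted p = 0.000167), Epcam (-1.24, adjusted p = 0.0363) and 1 Cldn3 probe set (-0.64, adjusted p = 0.0201), 3 of 17 beside 4.86% of all. For Krt19 and Cldn7 those effects differed by 0.57 and 0.14 and were not called. Without the P19 control of batch 1 that stood apart the count of 4 was 7 (22.1% of all probe sets) and the count of 3 was 5 (9.25% of all). The count of 3 was 1 without replicate 1 or replicate 2 of P19 cells with MyoD (3.51% and 3.68% of all). The MyoD count of 2 was 4 without P19 control replicate 3 (29.9% of all). MyoD and NeuroD2 were measured in different batches with different controls, so the factor and the batch cannot be told apart in that comparison. Between the P19 control groups 4 of 17 probe sets were called, beside 13.8% of all. Cldn6, Cdh1 (1.60) and Cdh3 (0.44) were higher in batch 3 and the non-lead Epcam probe set was lower (-0.68). The count of 4 was 2 without the array that stood apart (15.5% of all), where Cdh1 differed by 0.66 and was not called. It was 1 or 2 without replicate 2 or 3 of the batch 3 controls (10.1% and 8.51% of all). Between the MEF control groups 0 of 17 were called, beside 3.65% of all. At an unadjusted p under 0.05, for which no share of all was computed, 2 were higher and 0 lower. The count of 0 was 3 without the P19 array that stood apart (17.5% of all) and 1 without MEF control replicate 2 of batch 2 (2.4% of all).

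Other junction genes were described by their lead probe sets from lists chosen with earlier results of these data known. In MEF against P19 controls, 10 of 19 other claudin and tight junction genes were lower and 0 higher, with F11r, a junctional adhesion molecule, at -3.67 and Cxadr at -3.53. Of 13 catenin and desmosome genes 7 were lower and 2 higher, with the desmosomal cadherin Dsc2 at -2.39. Of 14 polarity and surface genes 12 were lower and 0 higher, among them the surface glycoprotein Cd24a (-7.20), the tricellular junction receptor Lsr (-3.83) and the protease inhibitor Spint1 (-2.81). Over all genes 4823 of 18193 were lower and 4486 higher. The 13 other keratins held 1 lower gene, Krt1 (-0.54), and 1 higher, Krt10, at 0.59 (0.25 and not called without P19 control replicate 2).

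With NeuroD2 in P19 cells, 5 of the 14 polarity and surface genes were lower and 0 higher, beside 556 lower and 910 higher of all 18193 genes. They were St14 (-0.82), a membrane protease, its inhibitor Spint2 (-0.64), Llgl2 (-0.82) and Crb3 (-0.63), which act in apical and basal polarity, and the junction receptor Lsr (-0.50), which the rule for naming genes left out. The list's median was -0.47, against -0.05 over all genes. Without the P19 control of batch 1 that stood apart 10 of the 14 were lower and 1 higher, beside 1938 lower and 1915 higher of all genes. Of the 13 catenin and desmosome genes 3 were lower, Dsc2 (-0.83), Pkp2 (-0.86) and Dsg2 (-0.48). Of 19 tight junction genes, Marveld2, a protein of tricellular junctions, was lower (-1.03) and Cldn23 higher (0.73). Of these calls, those of Crb3 and Spint2 ended without control replicate 2 (limma adjusted p = 0.0682 and 0.0683) and that of Dsg2 without replicate 1 of either group (0.113 to 0.117). Leaving out any of 4 arrays ended the Pkp2 call (0.0528 to 0.129) and the Cldn23 call (0.0774 to 0.191), and leaving out any of the 6 ended the Marveld2 call (0.0574 to 0.132). With MyoD in P19 cells 0 of 19 tight junction and 0 of 13 catenin and desmosome genes were called, and of the polarity list Cd24a was higher (1.08), beside 358 higher and 121 lower of all genes. That call ended without control replicate 2 (0.77, limma adjusted p = 0.0657) and without any of the 3 MyoD arrays (0.0778 to 0.0791).

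With NeuroD2 in P19 cells, of 14 epithelial regulators 4 were lower, 9 were not called and 1, Grhl3, was higher (0.49, limma adjusted p = 0.0253), beside 556 lower and 910 higher of all 18193 genes. Esrp1, a splicing factor of epithelial cells, averaged 7.55 ± 0.821 in controls and 5.40 ± 0.18 with NeuroD2 (log2, SD, n = 3), a difference of -2.16 (SE 0.30, limma adjusted p = 3.82e-05), and its relative Esrp2 fell by 0.70. Klf5 fell from 9.62 ± 0.36 to 8.24 ± 0.0807 (-1.38, SE 0.20, limma adjusted p = 8.58e-05). Tfap2c, a transcription factor of embryonic epithelia, differed by -1.45 (limma adjusted p = 0.000583). Against the P19 controls of batch 1 Klf5 differed by -0.21, Esrp2 by -0.14 and Tfap2c by 0.22, none of them called, while Esrp1 was still lower (-1.51, adjusted p = 0.00101). Grhl2, an activator of Cdh1 and Cldn4 in epithelia, lay at 6.36 ± 0.371 against 6.49 ± 0.0691 and was not called. With MyoD in P19 cells 0 of the 14 were called in limma, beside 358 higher and 121 lower of all genes, and 2 were lower without the array that stood apart. Esrp1 differed by -0.63 with MyoD (adjusted p = 0.169), and was called lower with that array left out (0.0432) and against the controls of batch 3 (-1.27, 0.00787).

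Among 7 repressors of epithelial genes, Zeb1 was higher in all 4 transduced groups than in the controls of the same batch. It rose by 1.28 with NeuroD2 and by 0.48 with MyoD in P19 cells, and by 1.80 with MyoD and 1.67 in MEFs labelled NeuroD2 (limma adjusted p = 4.72e-07, 0.0487, 5.41e-10 and 4.43e-09). The MyoD rise in P19 cells was not called without control replicate 2 (0.30, adjusted p = 0.115), without any of the 3 MyoD arrays (adjusted p = 0.084 to 0.182) or after quantile normalization (0.19, adjusted p = 0.219). Zeb2, Snai1, Snai2 and Twist1 were not called in P19 cells with either factor. Snai1 read 0.66 higher with MyoD, and 1.29 higher without control replicate 2 (adjusted p = 4.08e-06). With that array left out 3 of the 7 repressors were higher. Snai2 turned from -0.07 to 0.65 (adjusted p = 0.0372) and Zeb2 from 1.02 without a call to 0.36 with one (adjusted p = 0.0433), while Zeb2 was 1.35 and 1.34 and called without control replicate 1 or 3 (0.0138 and 0.0135). Twist1 with NeuroD2 was -0.74 and was called lower without that array or without replicate 3 of the batch 3 controls (0.0345 and 0.0357), but was 1.18 against the controls of batch 1 (0.00345). With MyoD, Twist1 was -0.56 against its own controls and -2.48 against those of batch 3 (3.28e-06). Of the mesenchymal genes, Cdh11 rose with NeuroD2 in P19 cells (1.80, adjusted p = 0.00369), while Cdh2 (0.56, adjusted p = 0.237) and Vim (0.34, adjusted p = 0.767) were not called. Between the starting cells 6 of the 7 repressors were higher in MEFs and 0 lower, with Twist2 at 5.69 and Snai2 at 4.11, and 5 of 6 mesenchymal genes were higher, beside 4486 higher and 4823 lower of all 18193 genes.

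**Figure D4:**
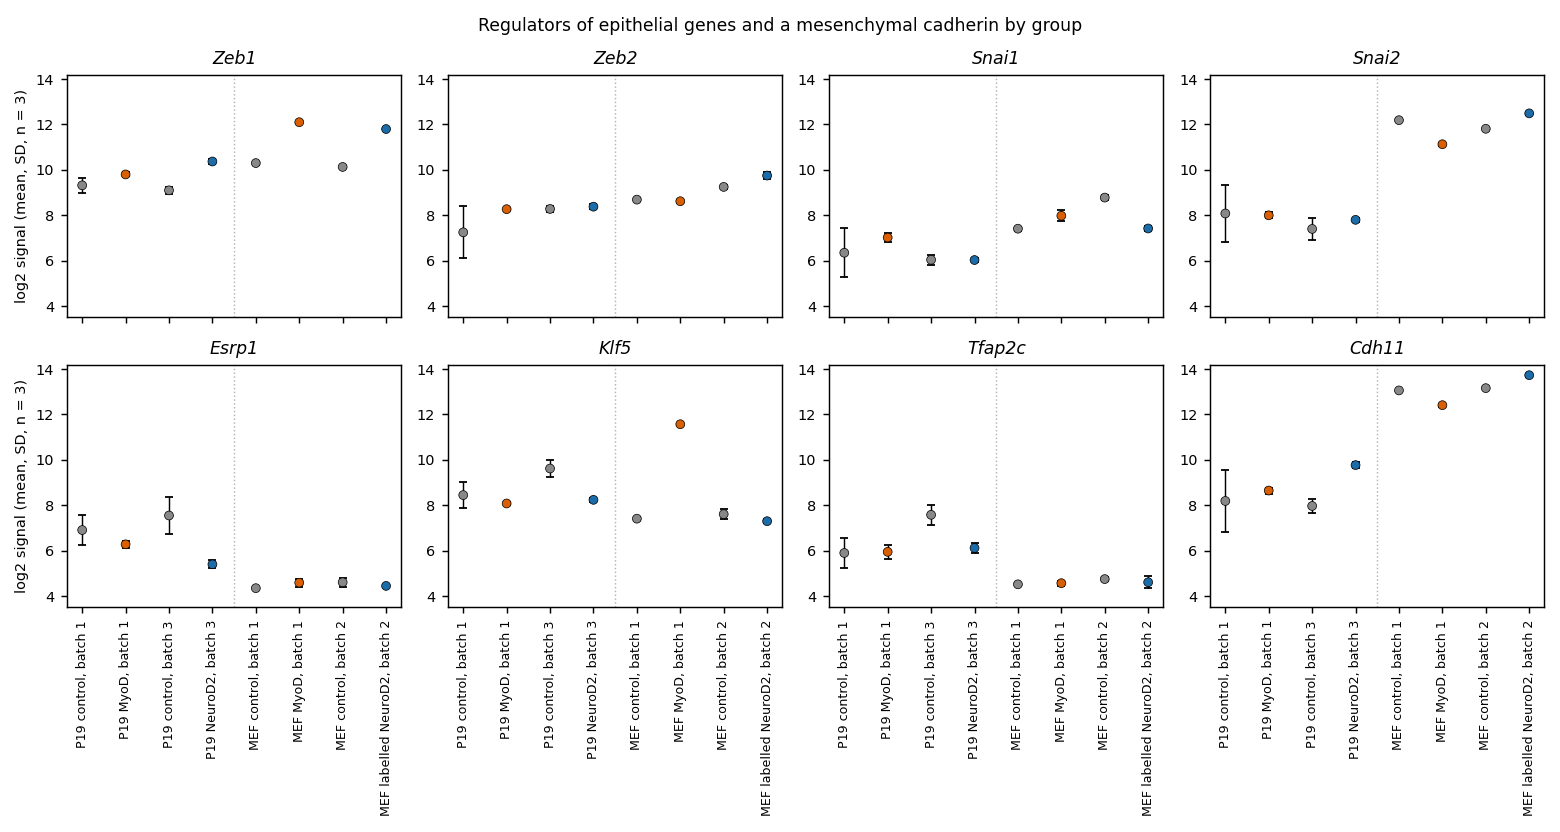
Mean log2 signal with SD (n = 3) at the lead probe sets of 4 repressors, 3 epithelial regulators and the mesenchymal cadherin Cdh11 in the 8 groups (grey controls, orange MyoD, blue NeuroD2). Zeb1 lay above its controls with MyoD in both cells, with NeuroD2 in P19 cells and in MEFs labelled NeuroD2, and Esrp1 and Klf5 lay below their controls in P19 cells with NeuroD2.

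Markers of other cell types were read beside these results. The 9 pluripotent markers averaged 9.78 to 9.94 on the P19 controls of batch 3 and 9.56 to 9.85 with NeuroD2. The 9 fibroblast markers averaged 6.42 to 7.30 and 6.83 to 7.11, which overlapped. In the controls 1 of them, Dcn, was above the array median on every array, and with NeuroD2 6 others were and Dcn was not. Of these 6, Col1a1 and Col1a2 differed from control by 0.72 and 0.36 and were not called (limma adjusted p = 0.194 and 0.782). Without replicate 1 of both groups they differed by -0.00 and -0.53. The 7 trophectoderm markers, which include Tfap2c, averaged 6.42 to 6.47 in those controls and 5.90 to 6.05 with NeuroD2. The 9 markers of extraembryonic endoderm averaged 6.05 to 6.14 and 5.81 to 6.01, with 3 and 1 of them above the array median. The part of these lists in the falls of Cldn6, Epcam and Cldn7 was not tested. In batch 1 the trophectoderm list averaged 5.87 to 6.13 in P19 controls and 5.53 to 5.77 with MyoD. The fibroblast list averaged 6.59 to 7.21 and 6.09 to 6.17, and the extraembryonic endoderm list 6.08 to 6.73 and 5.80 to 5.93. Lists of mesothelium (5.14 to 5.29 and 5.01 to 5.07), endothelium (5.60 to 5.86 and 5.37 to 5.48) and macrophages (5.03 to 5.81 and 4.92 to 5.02) were also lower. None of these lists overlapped, whereas the pluripotent and keratinocyte lists did. The gap was small for macrophages (5.03 against 5.02). In both groups 1 endothelial gene, Kdr, and 1 macrophage gene, Csf1r, lay above the array median on every array. These list means were not tested, and they were not taken without the array that stood apart. Col1a1 was lower with MyoD in P19 cells (-1.33, limma adjusted p = 0.0191). With the array that stood apart left out it was -1.09 (adjusted p = 0.0606). The part of these lists in the falls of Krt19 and Cldn7 was not tested. Of the 7 keratinocyte markers Krt10 alone was above the array median on all arrays of both batch 3 P19 groups, and of the 5 mesothelial markers 0 were in any group.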

How the data were processed

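RNA from 24 samples was measured on Affymetrix mouse arrays, with biotin-labelled cRNA per the labels' protocols. The deposited values are log2 signals. How background was handled and how arrays were normalized and summarised is not given in the sources used. The submitters' processing notes name limma and no other tool. No detection calls were used. Low signals are compressed toward background, which can understate differences.

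Of 45101 probe sets, 64 controls, 9160 that had no symbol and 932 that had more than 1 were set aside. The remaining 34945 were fitted with limma 3.58.1 in R 4.3.3, with 1 mean per group over all 24 arrays (16 residual and 3.74 prior degrees of freedom). Each factor was compared with the controls of its own batch. Tests were two-sided and adjusted by Benjamini-Hochberg over all 34945, and "called", "rose", "fell", "higher" and "lower" of a count mean an adjusted p under 0.05. Intervals are 95% intervals of the fit and are not adjusted. The script was tested on simulated data. Precision is limited by the number of arrays.

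The members and lists were chosen with earlier results of these data known. Named genes were all members, up to 4 called genes with the largest difference per list and main comparison, a fixed set (Snai1, Snai2, Zeb1, Zeb2, Twist1, Grhl2, Esrp1, Cdh2 and Vim), the nearest profiles and the label checks. Promoter sequences are from the RefSeq table of GRCm38.p6. The alternatives were quantile normalization again, a median shift, leaving out dim or multi-transcript probe sets, lead probe sets only, only the arrays compared, array weights, a robust trend, the replicate number as a block, controls of the other batch, and leaving out arrays. Replicate numbers do not pair the samples: deviations of same-numbered arrays correlated by -0.21 to 0.34 across probe sets.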

Additional observations from a re-analysis of the deposited data

Results flagged for a closer look

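Each result here is a difference between MEFs and P19 cells in how the groups of 1 factor label differed from their controls, which passed limma's test of the difference itself. For MyoD these were Krt19 (1.54, adjusted p = 0.00994) and Cldn7 (1.15, adjusted p = 0.00724), which were lower with MyoD in P19 cells and had group means of 4.79 to 5.36 (Krt19) and 4.57 to 4.62 (Cldn7) in MEFs. For the NeuroD2 label these were Cldn6 (2.04, adjusted p = 4.18e-06), Cldn7 (1.01, adjusted p = 0.0288) and Cldn3 at 2 of its 4 probe sets (0.64 and 0.89, adjusted p = 0.00708 and 0.000539). In the MEFs labelled NeuroD2 Neurod2 RNA was not called as higher, and the MEF and P19 arrays of that comparison were in different batches. The causes were not tested.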

How the results depend on the processing

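The main counts of member probe sets were 2 lower with MyoD and 7 lower with NeuroD2 in P19 cells, 0 in MEFs and 14 lower in MEF against P19 controls. Leaving out dim probe sets gave 0, 4 and, for the MyoD and NeuroD2 differences between cells (2 and 4), 0 and 2. Of all probe sets kept there, 0.618% and 3.74% were lower, and 31% and 12.2% were called for the differences. Lead probe sets alone gave 4 for NeuroD2, 9 between the cells and 2 for the NeuroD2 difference, beside 3.24% lower, 26.9% lower and 10.2% called of all lead probe sets. Leaving out multi-transcript probe sets gave 3, 6 and 2, and 1 for NeuroD2 minus MyoD in P19 cells (main 3). Beside these, 2.42% and 22.7% of all probe sets kept were lower, and 9.31% and 4.89% were called. Fewer probe sets entered these counts. Fitting only the arrays compared gave 1 for MyoD in P19 cells, 1 higher and 2 lower for MyoD in MEFs, 1 lower for MEFs labelled NeuroD2, 1 for the MyoD difference, 1 for NeuroD2 minus MyoD, 0 between P19 controls (main 4) and 2 between MEF controls (main 0). Of all probe sets, 0.0114% were lower for MyoD in P19 cells, 22.1% higher and 24.7% lower for MyoD in MEFs. In MEFs labelled NeuroD2 11.9% were lower. Shares called were 12.9% for the MyoD difference, 1.46% for NeuroD2 minus MyoD, 0% between P19 controls and 17% between MEF controls. Array weights, whose estimation stopped before it converged, gave 5, 15, 2 higher with MyoD in MEFs, 1 higher and 1 lower in MEFs labelled NeuroD2, 6 and 13 for the differences, 6 for NeuroD2 minus MyoD and 7 between MEF controls. Many more of all probe sets were called there: 3.47% and 15.2% lower for MyoD and NeuroD2 in P19 cells and 24.4% higher with MyoD in MEFs. In MEFs labelled NeuroD2 20.7% were higher and 21.6% lower. Shares called were 36.1% and 35.4% for the differences, 15.2% for NeuroD2 minus MyoD and 38.3% between MEF controls. A median shift gave 5 for NeuroD2 minus MyoD (6.07% of all probe sets called) and quantile normalization 2 between P19 controls (15.6%). Other-batch controls gave 1 lower for MyoD in MEFs (14.7% lower). Leaving out replicate 1 of both batch 3 P19 groups gave 7 for the NeuroD2 difference (9.77% called).

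Leaving out 1 array gave 2 to 6 for MyoD, 5 to 9 for NeuroD2, 14 to 16 between the cells, 2 to 4 and 3 to 7 for the differences, 1 to 5 for NeuroD2 minus MyoD, 1 to 6 between P19 controls and 0 to 3 between MEF controls. Of all probe sets, 0.12% to 14.7% were lower for MyoD, 1.41% to 9.5% for NeuroD2 and 18.9% to 29.2% between the cells. Shares called were 15.5% to 29.9% and 7.72% to 22.1% for the differences and 3.44% to 12.1% for NeuroD2 minus MyoD. Between P19 controls 8.51% to 39.6% were called, and between MEF controls 2.03% to 17.5%. With the replicate block the count between P19 controls was 2, beside 10.8% of all probe sets called, and no other member count moved by over 1.5 times. Directions turned for 1 Krt8 probe set with NeuroD2 in P19 cells (0.00, to -0.82 with weights and -1.07 without both replicates 1; -0.63 to 0.35 without 1 array), for the NeuroD2 difference of that Krt8 probe set (0.98) and of Krt18 (0.76) with weights, for Snai2 with MyoD (0.44 with weights; -0.52 to 0.65 without 1 array), and with other-batch controls for Tfap2c (0.22), Twist1 (1.18) and Snai1 in MEFs labelled NeuroD2 (0.00). The cause was not tested. The low Cdh1, Cldn7 and Krt19 signals limit what a fall in MEFs can show.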

Other observations

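In MEFs with MyoD, where no member was called, some scaffolds of junctions and polarity were higher. These MEFs had been moved to low-serum medium, which is not recorded for their controls, and the part of the medium was not tested. Tjp1, a scaffold of tight junctions, differed by 0.90, the polarity proteins Pard3 and Patj by 0.87 and 1.21, and Ctnna1 and Jup, which link cadherins to filaments, by 0.57 and 0.61 (limma adjusted p = 0.00113, 0.000103, 0.00131, 0.00487 and 0.0467). Ctnnb1 (-0.30), Prkci (-0.64), Cldn12 (-0.61) and Cxadr (-0.95) were lower. The calls of Jup and Ctnnb1 ended without any 1 of the 6 arrays (adjusted p = 0.0751 to 0.165 and 0.0979 to 0.141), that of Cxadr without any of 4 (0.0545 to 0.125), and that of Cldn12 without control replicate 3 or MyoD replicate 2 (0.0671 and 0.0509). Against the batch 2 controls Jup (0.27), Cxadr (-0.04), Cldn12 (-0.16) and Prkci (-0.29) were not called. Counts were 1 higher and 2 lower of 19 tight junction genes, 2 higher and 1 lower of 13 catenin and desmosome genes, and 3 higher and 1 lower of 14 polarity and surface genes, beside 1924 higher and 2598 lower of all 18193 genes.

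Klf5, a transcription factor of epithelia and other tissues, averaged 7.41 ± 0.0568 in MEF controls and 11.57 ± 0.0294 with MyoD (log2, SD, n = 3), a rise of 4.15 (limma adjusted p = 1.47e-12), whereas it was lower with NeuroD2 in P19 cells. Twist1 and Twist2 were lower with MyoD in MEFs (-1.41 and -2.16) while Zeb1 was higher. In MEFs labelled NeuroD2 the transcription factors Klf4 and Ehf were lower (-2.03 and -1.35), and the mesenchymal gene S100a4 was lower (-0.74) and Cdh2 higher (0.83, limma adjusted p = 0.0293). The Cdh2 call ended without any 1 of the 6 arrays (0.0676 to 0.0979), and against the batch 1 controls neither Cdh2 (0.55, 0.16) nor Ehf (-0.34, 0.392) was called.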
